A study of Mus musculus with 6 samples.

Results

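Protein arginine methyltransferases were examined in glomeruli, the filtering units of the kidney, isolated from mice. The group was the 8 enzyme genes Prmt1, Prmt2, Prmt3, Carm1, Prmt5, Prmt6, Prmt7 and Prmt9, together with Wdr77, which encodes the obligate partner of PRMT5. The members were taken by name, and all 9 were found among the 55401 Ensembl genes of the deposited count table. The labels name a DKD group and a Control group with 3 libraries each, and the series title spells out DKD as diabetic kidney disease. The labels enter DKD and Control as a genotype. The sources used here do not give strain, age, sex, the allele or agent behind the disease, or whether animals were pooled. The question stated for the series is the transcriptional profile of histone methyltransferases in the disease. Libraries carry only a number within their group, with no word on separate animals, so each p-value reflects library-to-library spread, which may be technical.

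Arginine methyltransferases move methyl groups from S-adenosylmethionine to arginine side chains of histones and of many RNA-binding proteins. Type I enzymes make asymmetric dimethylarginine, type II enzymes make symmetric dimethylarginine, and a type III enzyme stops at monomethylarginine. When methylated proteins are broken down, free asymmetric dimethylarginine is released. It inhibits nitric oxide synthases and is cleared largely in the kidney. Among the members, Prmt1, Prmt2, Prmt3, Carm1 and Prmt6 encode type I enzymes, Prmt5 and Prmt9 encode type II enzymes, and Prmt7 encodes the type III enzyme. Wdr77 encodes a WD-repeat protein, also called MEP50, that forms a complex with PRMT5 and presents substrates to it.

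Libraries held between 71154026 and 83576494 counts, and the 9 members together held between 15666 and 15941 counts in DKD libraries and between 16590 and 19676 counts in Control libraries. Levels are given as CPM, counts scaled to library size with TMM factors. On that scale the 9 members summed to between 219 and 234 CPM in DKD and between 219 and 235 CPM in Control. Control replicate 3 stood apart from its group. It lay at 101 on the first principal component of log2 CPM, which held 39.8% of the variance, while Control replicates 1 and 2 lay at 18.1 and 15.0. The 8 podocyte markers summed to between 318 and 442 CPM in DKD and between 451 and 646 CPM in Control. Proximal tubule markers, 8 genes of the segment that follows the glomerulus, summed to between 7837 and 16531 CPM in DKD and between 15218 and 34167 CPM in Control, with the highest sum in Control replicate 3. Podocyte markers had a median log2 fold change of −0.57, with 7 of 8 below 0, and 6 were lower at an unadjusted p under 0.05, against 10.9% of all genes. EdgeR called 0 of these 8 at an adjusted p of 0.05. DESeq2 called 4 lower, against 1127 lower among the 17785 genes to which it gave an adjusted p. All 8 proximal tubule markers had values below 0, with a median of −0.88. Of these, edgeR called 2 lower, Slc5a2 at −1.82 and Slc5a12 at −2.56, against 0.431% of all genes. DESeq2 called 5 lower, against the same 1127 of 17785 genes. The podocyte sums did not overlap between groups, while the proximal tubule sums did. The sums of the other 4 marker lists overlapped too, but single markers differed. Agtr1a, a mesangial marker, was called lower by edgeR at −1.07 (adjusted p 0.0360). Of the 6 genes in the list used for mesangium 5 were below 0, and Ren1 was at 0.76 with overlapping groups. The endothelial markers Kdr at −1.06 and Ehd3 at −0.76 and the collecting duct marker Aqp2 at 1.59 did not overlap between groups, with adjusted p-values of 0.0573, 0.0573 and 0.103 by edgeR. The list that holds Aqp2 went both ways, with 4 of 6 genes below 0. In it Slc4a1 at −0.94 (adjusted p 0.0592 by edgeR) and Slc12a3 at −0.52 were lower in DKD without overlap. Of the 6 leukocyte markers 4 were above 0 and 2 below. Cd79a, at 2.37 (adjusted p 0.0845 by edgeR), was higher in DKD without overlap. These markers were picked out after their values were seen. No listed marker of podocytes or proximal tubule was at 0 in every library, so tubule RNA was present in the glomerular libraries. In bulk tissue, fewer cells of a type and less RNA per cell cannot be told apart. The part of either marker list in the results below was not tested.

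The start regions of Wdr77 and Prmt5 are shown because their products form 1 complex. EdgeR called neither transcript (adjusted p 0.0694 for Wdr77 and 0.776 for Prmt5). Their ratio, given below, had an exact permutation p of 0.1, the smallest that this design allows. A difference between the transcripts is therefore not established, and the part of the start regions in either level was not tested. Sequences are from RefSeq on build GRCm38.p6, which precedes the build GRCm39 named by the submitters. Of the 9 members 8 had an entry, and Carm1 had none. Each window runs from 250 bases before to 50 after the annotated start, 5′ to 3′ on the strand of the gene. Capitals mark matches on either strand to the GC box GGGCGG, the CCAAT box CCAAT, the E box CACGTG or the palindrome TCTCGCGAGA, which is the longest palindrome repeated in the Wdr77 window. No matches overlapped. These motifs were chosen after the sequences were seen.
Wdr77, chr3:105959248-105959547, plus strand: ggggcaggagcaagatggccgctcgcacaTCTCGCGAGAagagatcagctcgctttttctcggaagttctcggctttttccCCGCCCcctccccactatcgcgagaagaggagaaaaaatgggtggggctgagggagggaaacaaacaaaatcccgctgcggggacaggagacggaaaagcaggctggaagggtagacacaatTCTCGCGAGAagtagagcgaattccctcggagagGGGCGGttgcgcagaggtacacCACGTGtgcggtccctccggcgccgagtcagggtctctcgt
Prmt5, chr14:54517421-54517720, minus strand: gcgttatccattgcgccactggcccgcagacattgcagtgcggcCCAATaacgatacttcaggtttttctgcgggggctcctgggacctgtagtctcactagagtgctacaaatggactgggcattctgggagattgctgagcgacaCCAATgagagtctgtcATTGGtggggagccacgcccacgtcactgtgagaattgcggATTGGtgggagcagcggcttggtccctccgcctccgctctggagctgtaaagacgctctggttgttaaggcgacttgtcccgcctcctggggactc

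The Wdr77 window held 2 copies of TCTCGCGAGA, 2 GC boxes and 1 E box. The Prmt5 window held 4 CCAAT boxes and none of the other motifs. Of 32851 RefSeq windows of the same length, 0.466% held TCTCGCGAGA at least once and 0.033% held it 2 or more times. CCAAT was present in 37.4% of the windows, GGGCGG in 35.7% and CACGTG in 7.15%. Among the other 6 windows, that of Prmt1 held 4 GC boxes, 3 CCAAT boxes and 1 E box, and that of Prmt2 held 2 GC boxes and 1 CCAAT box. The windows of Prmt6 and Prmt9 held none of the 4 motifs. CpG dinucleotides numbered from 16 in Prmt5 and Prmt6 to 39 in Prmt7, against a median of 7 over all windows. A match describes these letters and is not evidence of a bound site.

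All 9 members passed the filter on low counts. With edgeR's quasi-likelihood test over 19717 genes and Benjamini-Hochberg adjustment, 0 of the 9 members passed an adjusted p of 0.05, against 1.16% of all genes tested (0.725% higher and 0.431% lower in DKD). At an unadjusted p of 0.05 there were 2 of the 9, Wdr77 lower and Carm1 higher in DKD, against 22.6% of all genes. DESeq2 called the same 2 members, against 14% of all genes with an adjusted p by that tool. DKD and Control libraries did not overlap for 3 of the 9 members, Carm1 and Prmt6 higher and Wdr77 lower. Over all genes 30.7% did not overlap, so the members' share is near the background. The median log2 fold change of the members, DKD over Control, was −0.07, against 0.0029 over all genes tested.

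**Figure D1:**
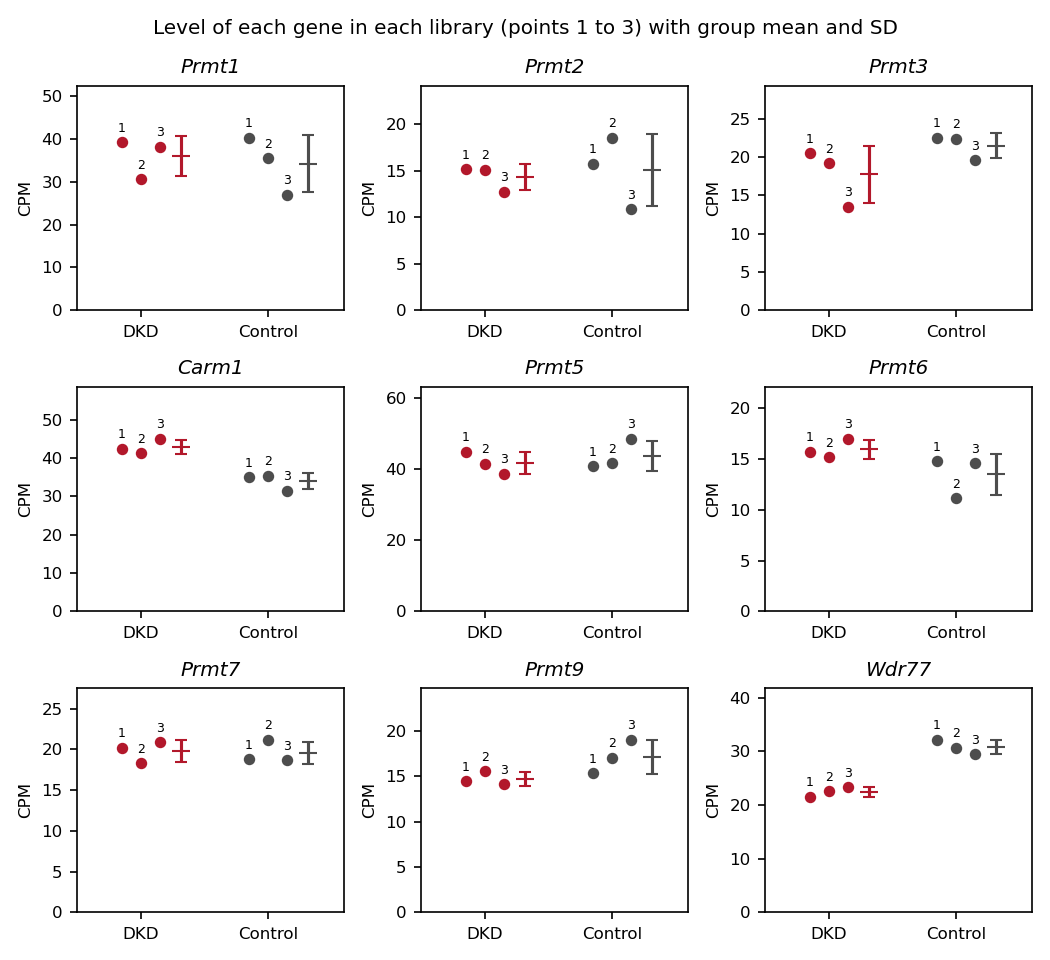
Level of each member in CPM (vertical axes, from 0) in the 3 DKD libraries on the left and the 3 Control libraries on the right of each panel, numbered by replicate, with group mean and SD beside the points. Wdr77 lay between 21.5 and 23.4 CPM in DKD and between 29.5 and 32.2 CPM in Control, and Carm1 showed the opposite order.

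Wdr77 (ENSMUSG00000000561, chromosome 3), the PRMT5 partner, was the member furthest from Control. It was measured at 21.5, 22.6 and 23.4 CPM in DKD replicates 1 to 3, against 32.2, 30.7 and 29.5 CPM in Control replicates 1 to 3. Every DKD library lay below every Control library, and the coefficient of variation within a group was 4.07% in DKD and 4.35% in Control. The group mean in DKD was 0.730 times that in Control (22.5 ± 0.916 against 30.8 ± 1.34 CPM, SD, n = 3 each). This gave −0.45 ± 0.10 (SE) on the log2 scale, DKD over Control, and edgeR put the unadjusted p at 0.00248 and the adjusted p at 0.0694, short of the threshold. Over 17 alternatives it was lower in DKD in 17, with log2 fold changes from −0.59 to −0.38. The adjusted p ran from 0.00188 with DESeq2, the one setting that called Wdr77, to 0.215. Across all genes tested, greater length went with lower values in DKD (Spearman −0.264). With the transcript length trend removed Wdr77 was −0.38 (adjusted p 0.119 by edgeR). With the GC content trend removed Wdr77 was also −0.38 (adjusted p 0.120 by edgeR). Without Control replicate 3 it was −0.48, with an adjusted p of 0.0664 by edgeR. A non-coding model on the same strand, Gm42890, covers 28.7% of the exon bases of Wdr77. Of the 31-base words in Wdr77 transcripts, 28.2% also occur in another gene, most of them in Gm42890. Part of the Wdr77 reads could therefore be assigned elsewhere. Gm42890 was counted at 0.926, 0.859 and 1.40 CPM in DKD replicates 1 to 3, against 0.550, 0.556 and 0.621 CPM in Control replicates 1 to 3. Gm42890 differed by 0.88 ± 0.36 on the log2 scale (unadjusted p 0.0444 and adjusted p 0.209 by edgeR), and its level was below that of Wdr77 in every library. Atp5f1, a gene on the opposite strand, overlaps 6.96% of the Wdr77 exon bases. Its level was far above that of Wdr77, between 444 and 511 CPM in DKD and between 379 and 528 CPM in Control. Atp5f1 had a log2 fold change of 0.12 ± 0.18. The part of either overlap in the Wdr77 counts was not tested.

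Prmt5 (ENSMUSG00000023110, chromosome 14), the type II enzyme that makes most symmetric dimethylarginine, did not share this pattern. It was measured at 44.9, 41.5 and 38.8 CPM in DKD replicates 1 to 3, against 40.9, 41.7 and 48.5 CPM in Control replicates 1 to 3. The groups overlapped, and the log2 difference was −0.07 ± 0.12 with an adjusted p of 0.776 by edgeR. Without Control replicate 3, its highest library, the fold change was 0.01. The ratio of Wdr77 to Prmt5, each as CPM per kilobase of exon, does not depend on how libraries are scaled. It was 0.392, 0.445 and 0.493 in DKD replicates 1 to 3, against 0.644, 0.602 and 0.497 in Control replicates 1 to 3. The highest DKD library lay just below the lowest Control library. The mean ratio was 0.443 ± 0.0504 in DKD and 0.581 ± 0.0756 in Control (SD, n = 3 each), a difference of −0.39 on the log2 scale, with an exact permutation p of 0.1 (two-sided), the smallest that 3 against 3 allows. Leaving out 1 library at a time, the difference ran from −0.50 without Control replicate 3 to −0.30 without DKD replicate 1.

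Prmt9, the other type II enzyme, which methylates a splicing factor, was measured at 14.5, 15.6 and 14.1 CPM in DKD replicates 1 to 3, against 15.3, 17.0 and 19.0 CPM in Control replicates 1 to 3. Control replicate 3 was the highest library, and the groups overlapped between DKD replicate 2 and Control replicate 1. By edgeR the log2 difference was −0.22 ± 0.13 at an adjusted p of 0.367, and −0.14 without Control replicate 3. Prmt7, the monomethylating enzyme, was measured at 20.2, 18.3 and 20.9 CPM in DKD replicates 1 to 3, against 18.8, 21.2 and 18.7 CPM in Control replicates 1 to 3. Its group means differed by 1.27%, less than the SD of either group. Its log2 value of 0.02 ± 0.12 had an adjusted p of 0.944 by edgeR, and its sign changed with library totals, with the GC content trend removed and without some single libraries.

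Among the type I enzymes Carm1 (ENSMUSG00000032185, chromosome 9), also called PRMT4, which methylates histone H3 and transcriptional coactivators, was higher in every DKD library. It was measured at 42.4, 41.3 and 45.0 CPM in DKD replicates 1 to 3, against 34.9, 35.4 and 31.5 CPM in Control replicates 1 to 3. The mean in DKD was 1.26 times that in Control (42.9 ± 1.91 against 33.9 ± 2.11 CPM, SD, n = 3 each). On the log2 scale that was 0.34 ± 0.10 (SE), and edgeR put the unadjusted p at 0.0115 and the adjusted p at 0.119. DESeq2 gave an adjusted p of 0.0374. The value depended on base composition, and on scaling unless taken relative to the median of all genes. With a trend on GC content removed it was 0.18, with an adjusted p of 0.345 by edgeR, and with library totals it was 0.20, where the median of all genes was shifted by −0.13. Relative to that median it was 0.33. Yipf2, a gene on the opposite strand, overlaps 21.1% of the Carm1 exon bases and had a log2 fold change of 0.15 ± 0.12. The sources used here do not say whether counting used the strand.

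**Figure D2:**
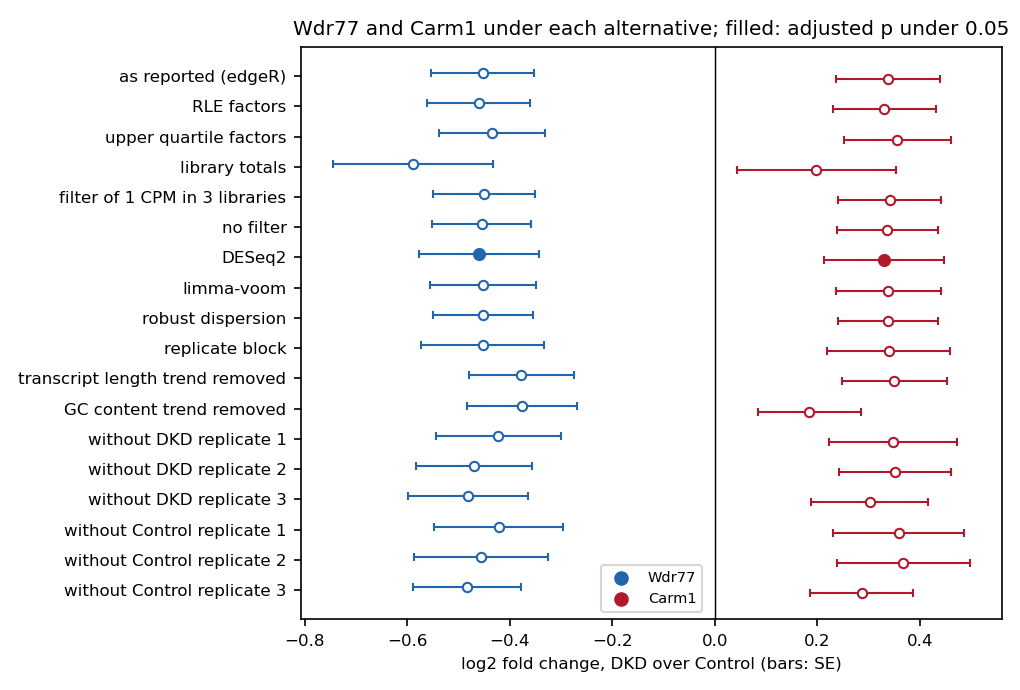
Log2 fold change, DKD over Control (horizontal axis), of Wdr77 and Carm1 with standard errors as reported and under 17 alternatives (rows); filled points pass an adjusted p of 0.05. Wdr77 stays between −0.59 and −0.38 and Carm1 between 0.18 and 0.37, and only DESeq2 calls either.

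Prmt1, which supplies most cellular asymmetric dimethylarginine, was measured at 39.2, 30.6 and 38.1 CPM in DKD replicates 1 to 3, against 40.2, 35.4 and 27.0 CPM in Control replicates 1 to 3. The Control libraries held both the highest and the lowest value. Its log2 value of 0.07 ± 0.17 had an adjusted p of 0.844 by edgeR, and without Control replicate 3 it was −0.07. Of the 31-base words in its transcripts, 7.97% also occur in another gene, so part of the Prmt1 reads could be assigned elsewhere. Prmt2, a weakly active enzyme that binds nuclear receptors, was measured at 15.1, 15.1 and 12.7 CPM in DKD replicates 1 to 3, against 15.7, 18.5 and 10.9 CPM in Control replicates 1 to 3. As for Prmt1, the lowest library was Control replicate 3, and the coefficient of variation in Control was 25.7% for Prmt2 and 19.6% for Prmt1, the widest of the 9 members in that group. For Prmt2 the log2 difference was −0.07 ± 0.21 with an adjusted p of 0.873 by edgeR.

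Prmt3, a cytosolic enzyme that methylates the ribosomal protein RPS2, was measured at 20.5, 19.2 and 13.5 CPM in DKD replicates 1 to 3, against 22.5, 22.4 and 19.5 CPM in Control replicates 1 to 3. DKD replicate 1 lay above Control replicate 3, and DKD replicate 3 was the lowest library. The log2 difference was −0.28 ± 0.17 with an adjusted p of 0.394 by edgeR, and it was −0.11 without DKD replicate 3. Prmt6, a nuclear enzyme that methylates histone H3, was measured at 15.7, 15.1 and 17.0 CPM in DKD replicates 1 to 3, against 14.7, 11.1 and 14.5 CPM in Control replicates 1 to 3. The groups did not overlap, but they were separated only by the gap between DKD replicate 2 and Control replicate 1. For Prmt6 the log2 difference was 0.24 ± 0.15 with an adjusted p of 0.390 by edgeR, and it was 0.12 without Control replicate 2. An antisense model, C130013H08Rik, overlaps 23.4% of the Prmt6 exon bases and was counted at 7.47, 5.42 and 6.03 CPM in DKD replicates 1 to 3, against 4.62, 4.90 and 7.02 CPM in Control replicates 1 to 3.

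**Figure D3:**
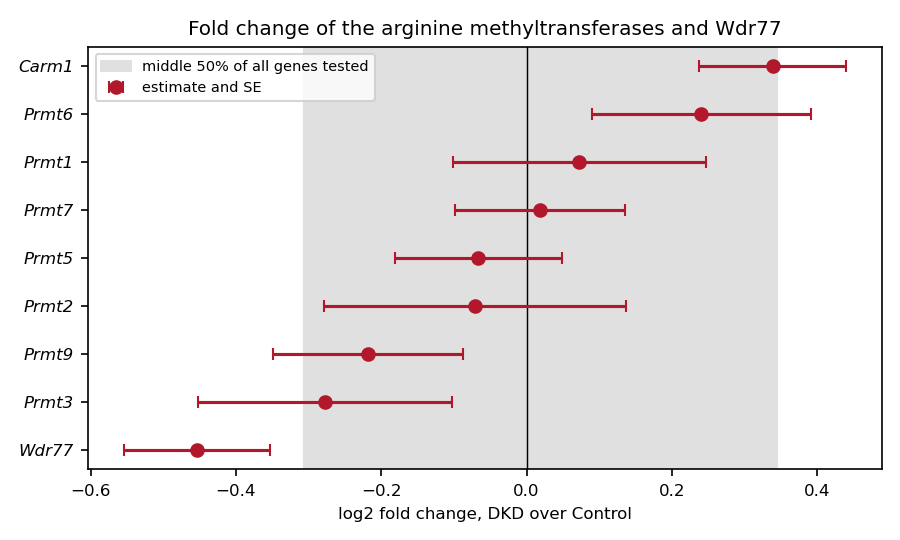
Log2 fold change of each member, DKD over Control (horizontal axis), with a standard error computed from the fold change and F statistic of edgeR. The grey band is the middle 50% of all genes tested, from −0.31 to 0.34; the estimate for Wdr77 lies outside it and that for Carm1 just inside its upper edge.

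Levels were compared between members as CPM per kilobase of exon bases. In DKD the order was Prmt5 at 10.5 ± 0.781, Prmt1 at 10.5 ± 1.37, Carm1 at 8.85 ± 0.393, Wdr77 at 4.65 ± 0.189, Prmt2 at 4.23 ± 0.410, Prmt6 at 3.79 ± 0.225, Prmt7 at 3.23 ± 0.222, Prmt3 at 2.96 ± 0.619 and Prmt9 at 2.59 ± 0.134 CPM per kilobase (SD, n = 3). In Control Prmt5 stood at 11.0 ± 1.06, Prmt1 at 9.99 ± 1.95, Carm1 at 7.00 ± 0.435, Wdr77 at 6.36 ± 0.277, Prmt2 at 4.45 ± 1.14, Prmt3 at 3.58 ± 0.279, Prmt6 at 3.21 ± 0.484, Prmt7 at 3.19 ± 0.229 and Prmt9 at 3.02 ± 0.327 CPM per kilobase. Neighbours in this order mostly overlapped. In DKD the libraries of Carm1 lay above all those of Wdr77 and those of Prmt6 above all those of Prmt7, whereas in Control Prmt1 lay apart from Carm1 and Wdr77 apart from Prmt2. In DKD Wdr77 overlapped with Prmt2 below it, while in Control it overlapped with Carm1 above it. With the longest transcript as the length, Prmt5, Prmt1 and Carm1 were again the 3 highest members in both groups, but Wdr77 ranked 7 in DKD and 5 in Control.

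The 8 enzymes summed to 46.7 ± 2.09 CPM per kilobase in DKD and 45.5 ± 2.17 CPM per kilobase in Control (SD, n = 3 each), with overlapping libraries. Within that sum Carm1 held 17.8%, 18.9% and 20.1% in DKD replicates 1 to 3, against 15.3%, 15.7% and 15.1% in Control replicates 1 to 3. Its share was higher in every DKD library, a description that, like the ratio above, is free of library scaling. Prmt3 held 6.32% ± 1.25 in DKD and 7.87% ± 0.246 in Control, and its libraries did not overlap either. Prmt5 held 28.5% in Control replicate 3, against 22.0% and 22.7% in the other Control libraries and between 21.2% and 23.3% in DKD. Control replicate 3 therefore carried the highest share of Prmt5 and the lowest shares of Prmt1 and Prmt2.

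**Figure D4:**
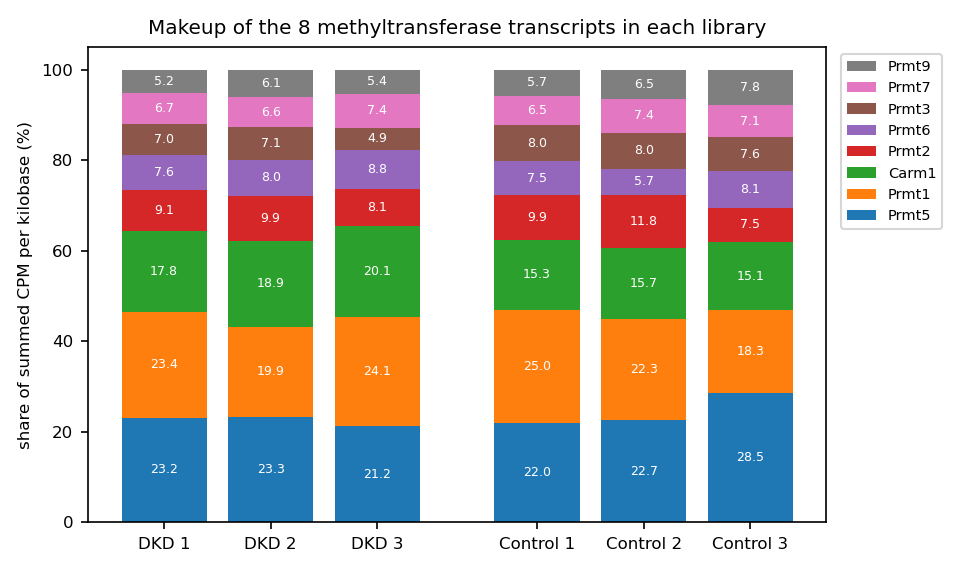
Share of each enzyme in the summed CPM per kilobase of the 8 methyltransferases (vertical axis, percent) in each DKD and Control library. The Carm1 segment is between 17.8% and 20.1% in DKD and between 15.1% and 15.7% in Control, and Control replicate 3 has the largest Prmt5 segment at 28.5%.

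Genes were searched for the pattern over the 6 libraries nearest to Wdr77, the member with the smallest p by edgeR. The search left out the listed genes and predicted or clone-named models. The nearest were Rai14, Etaa1 and Sgk3. Likeness was the root mean square distance between log2 CPM values centred on their mean, which was 0.0264 for Rai14, 0.0385 for Etaa1 and 0.0409 for Sgk3. Rai14, which encodes an actin-binding ankyrin-repeat protein, was measured at 31.8, 34.2 and 35.5 CPM in DKD replicates 1 to 3, against 46.4, 46.1 and 43.4 CPM in Control replicates 1 to 3. Among the other members the distance to Wdr77 ran from 0.183 for Prmt9 to 0.399 for Carm1, with 0.243 for Prmt5.

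Other genes of the arginine methylation pathway were listed by role, and edgeR called 0 of them at an adjusted p of 0.05, in either direction, in any of the 7 lists. DESeq2 called 10 of the 73 list genes to which it gave an adjusted p, 3 higher and 7 lower in DKD. That is 13.7%, near the 14% of all genes that DESeq2 called. Of the other arginine methyltransferases, Prmt8, known from brain, had 0 counts in all 6 libraries. Ndufaf7, which methylates a subunit of mitochondrial complex I, had a log2 fold change of −0.18 ± 0.12, and Mettl23 had −0.05 ± 0.14.

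Partners and adaptors of PRMT5 and PRMT1 went both ways, with 2 of 5 log2 fold changes above 0 and a median of −0.10. At an unadjusted p under 0.05 there was 1 of 5, against 22.6% of all genes. The PRMT5 adaptors Clns1a, Riok1 and Coprs had adjusted p-values of 0.589, 0.606 and 0.755 by edgeR. Btg1, an antiproliferative protein that binds PRMT1, was measured at 106, 114 and 133 CPM in DKD replicates 1 to 3, against 76.6, 78.4 and 43.0 CPM in Control replicates 1 to 3. Every DKD library lay above every Control library, at 0.83 ± 0.24 on the log2 scale (adjusted p 0.106 by edgeR and 0.0126 by DESeq2). Its relative Btg2 was measured at 40.3, 47.0 and 71.8 CPM in DKD replicates 1 to 3, against 35.6, 37.0 and 13.0 CPM in Control replicates 1 to 3. Btg2 differed by 0.89 ± 0.40 on the log2 scale (adjusted p 0.241 by edgeR). For both genes Control replicate 3 was far below the other Control libraries, and without it the log2 fold changes were 0.60 for Btg1 and 0.55 for Btg2.

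Readers of methylarginine, Tudor-domain proteins and related factors, had a median of −0.07, and 0 of 5 had an unadjusted p under 0.05 by edgeR. Smn1, the Tudor protein of the complex that assembles spliceosomal particles, was measured at 13.3, 11.9 and 11.8 CPM in DKD replicates 1 to 3, against 13.8, 15.2 and 15.2 CPM in Control replicates 1 to 3, with a log2 fold change of −0.26 ± 0.13. Tdrkh had −0.62 ± 0.32 at levels between 1.58 and 2.86 CPM in DKD and between 2.47 and 3.83 CPM in Control.

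Of 34 genes whose proteins are known substrates of these enzymes, 1 was higher and 8 were lower in DKD at an unadjusted p under 0.05, against 11.8% of all genes higher and 10.9% lower. The median of the list was −0.08. The groups did not overlap for 4 genes higher and 10 lower in DKD, against 15.5% and 15.2% of all genes. The 1 higher gene at that p was Rps2, at 0.60 ± 0.21 on the log2 scale (adjusted p 0.161 by edgeR). Hnrnpk, an RNA-binding protein methylated by PRMT1, was measured at 207, 209 and 197 CPM in DKD replicates 1 to 3, against 258, 275 and 280 CPM in Control replicates 1 to 3. The groups were separate (205 ± 6.19 against 271 ± 11.9 CPM), and the log2 difference was −0.41 ± 0.11 (adjusted p 0.106 by edgeR and 0.00267 by DESeq2).

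The methyl donor cycle, which makes and recycles S-adenosylmethionine, had a negative log2 fold change in 12 of 14 tested genes, with a median of −0.10, against 9810 of the 19717 genes tested. At an unadjusted p under 0.05 there were 3 lower genes in the list, against 10.9% of all genes. Mat1a, the liver-type synthetase, was at or near 0 and did not pass the filter. Gnmt, glycine N-methyltransferase, which consumes S-adenosylmethionine, was measured at 5.45, 9.66 and 4.57 CPM in DKD replicates 1 to 3, against 18.2, 16.7 and 18.5 CPM in Control replicates 1 to 3. Gnmt had a log2 difference of −1.44 ± 0.28 with an adjusted p of 0.0573 by edgeR, and it passed in 4 of 17 alternatives (0.0377 without DKD replicate 2). Bhmt, which remethylates homocysteine with betaine, was measured at 3.32, 2.34 and 1.96 CPM in DKD replicates 1 to 3, against 14.8, 12.0 and 3.40 CPM in Control replicates 1 to 3. Control replicate 3 lay just above the highest DKD library, and the log2 fold change of Bhmt was −1.99 ± 0.52 with an adjusted p of 0.0940 by edgeR, and −2.40 with an adjusted p of 0.0193 without Control replicate 3. The synthetase subunits Mat2a and Mat2b had adjusted p-values of 0.908 and 0.750 by edgeR.

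The list of free dimethylarginine and nitric oxide genes had 6 of 11 log2 fold changes below 0 and 5 above, with a median of −0.41. Of its genes, 2 were higher and 4 lower with unadjusted p-values under 0.05, against 11.8% of all genes higher and 10.9% lower. Ddah1 was at −0.41, Agxt2 at −0.58 and Ddah2 at 0.63, with adjusted p-values of 0.327, 0.199 and 0.198 by edgeR. The groups of Ddah1 and Ddah2 overlapped, and those of Agxt2 did not. Ass1, argininosuccinate synthase, an arginine-making enzyme abundant in proximal tubule, was measured at 774, 610 and 465 CPM in DKD replicates 1 to 3, against 1676, 1553 and 2686 CPM in Control replicates 1 to 3. Ass1 stood at −1.68 ± 0.29 on the log2 scale (adjusted p 0.0511 by edgeR), just short of the threshold, and it passed in 6 of 17 alternatives, among them 0.0357 without Control replicate 3. Arg2, the mitochondrial arginase, went the other way, with 20.2, 25.7 and 37.0 CPM in DKD replicates 1 to 3, against 7.68, 8.99 and 3.30 CPM in Control replicates 1 to 3. Its log2 fold change was 2.05 ± 0.39 with an adjusted p of 0.0573 by edgeR, and it passed in 4 of 17 alternatives, among them 0.0365 without Control replicate 3. All 8 proximal tubule markers were also below 0 in log2 fold change, and 5 of the 8 did not overlap between groups, against 15.2% of all genes lower without overlap. The overlap in their sum came with Kap, the most abundant of them, at 4354 to 11056 CPM in DKD and 7800 to 21114 CPM in Control. Both that sum and Ass1 were highest in Control replicate 3, and the part of tubule RNA in the value of Ass1 was not tested.

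Of the 6 genes for citrullination and arginine demethylation, Padi3 and Padi6 had 0 counts in all libraries. The 4 tested members had a median of 0.20, and none had an unadjusted p under 0.05 by edgeR. Padi1 and Padi4, peptidylarginine deiminases, were counted below 0.4 CPM in every library.

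**Figure D5:**
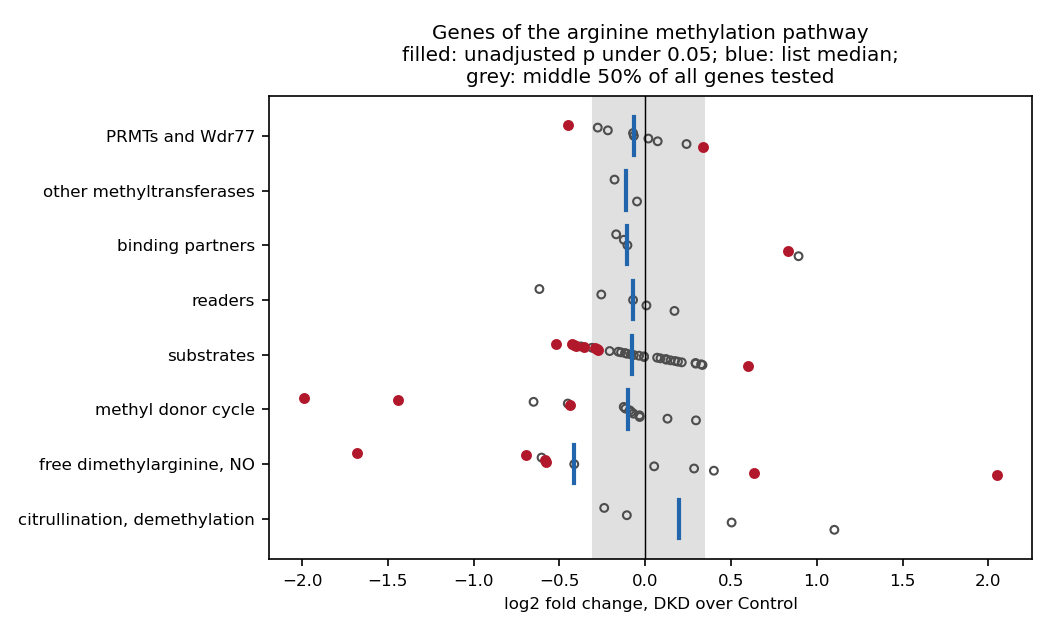
Log2 fold change, DKD over Control (horizontal axis), of the members and of each tested gene in the 7 pathway lists (rows). Filled points have an unadjusted p under 0.05, blue bars are list medians and the grey band is the middle 50% of all genes; the points furthest from 0 are Arg2 at 2.05 and Bhmt at −1.99.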

How the data were processed

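The authors deposited whole-number counts per Ensembl gene, without normalization. The submitters' processing notes name build GRCm39 and the tools HISAT2, StringTie, fastp and edgeR, without versions. The sources used here do not give the annotation release or the use of strand. Polyadenylated RNA was made into dUTP libraries and sequenced in pairs, per the labels' protocols. Symbols, exon lengths and overlaps came from GENCODE M21 on GRCm38, so gene coordinates are not printed; 55141 identifiers matched and 260 did not.

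Genes were kept by filterByExpr (minimum count 10), scaled with TMM factors and tested with edgeR 4.0.16 (quasi-likelihood, group as the only term, adjusted p under 0.05) in R 4.3.3 on all 6 libraries. Standard errors of edgeR values were computed as the absolute log2 fold change over the square root of the F statistic. Log2 CPM used a prior count of 2. Alternatives used DESeq2 1.42.0 and limma 3.58.1, other scalings and filters, trends with 5 degrees of freedom, and each library left out. The procedure was tested on simulated data. Within-group correlations of log2 CPM were between 0.954 and 0.980, and no library duplicated another.

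Members and lists were chosen with earlier results of these data known. The naming rule takes all 9 members, of each list up to 4 genes past the threshold (if none passed, the 2 of smallest p), those at 0 throughout, and the 3 nearest patterns. Adaptors, Ddah1, Ddah2, Agxt2, Rps2, Mat1a, Mat2a and Mat2b were named besides. 1 gene that the rule names is not reported here.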

Additional observations from a re-analysis of the deposited data

How the results depend on the processing

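Of 389 log2 fold changes of the 9 members and 14 named list genes under 17 alternatives, 14 changed sign, none of them farther from 0 than 0.12 after the change. Prmt1 was −0.087 with library totals, −0.050 with the transcript length trend removed and −0.012 with the GC content trend removed, and without single libraries it ran from −0.073 to 0.20. Without single libraries Prmt2 ran from −0.26 to 0.11, Prmt5 from −0.12 to 0.015, Prmt7 from −0.022 to 0.079 and Mettl23 from −0.13 to 0.062. Prmt7 was −0.12 with library totals and −0.044 with the GC content trend removed, and Mettl23 was 0.051 with the GC content trend removed. The cause was not tested.

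DESeq2 called 2 members, and no other alternative called any. At an unadjusted p under 0.05 there was 1 member with library totals and 1 with the GC content trend removed, and 2 in each fit without 1 library. Of the 75 pathway list genes that edgeR tested, where it called 0, 1 passed with upper quartile factors and 1 with library totals. There were 3 with the filter of 1 CPM in 3 libraries, 10 of 73 with DESeq2, 2 with limma-voom and 1 with the GC content trend removed. Without single libraries from 0 to 3 passed. Over all genes 228 of 19717 passed (143 higher and 85 lower in DKD). With upper quartile factors 240 passed, with limma-voom 204 and with the GC content trend removed 231. The filter of 1 CPM in 3 libraries gave 516 of 15046, no filter 56 of 30837 and DESeq2 2486 of 17785. With library totals 275 passed (101 higher and 174 lower). Leaving out single libraries, the number ran from 1 without Control replicate 1 to 386 without Control replicate 3. Same-numbered libraries did not deviate together (correlations −0.183, 0.0663 and −0.224), and not every library correlated best with its own number. With the replicate block 0 members and 0 genes passed, and Wdr77 had −0.45 with an adjusted p of 0.212 and Carm1 0.34 with 0.273 by edgeR.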
